A study of Mus musculus with 55 samples.

Results

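The endocannabinoid system of the ventral dentate gyrus was followed through 7 genes, Cnr1, Dagla, Daglb, Mgll, Abhd6, Napepld and Faah. They were chosen by name, as the main receptor of the system and the enzymes that make or break down its lipid ligands. The choice did not use their values, but earlier results of these data were known when it was made. They are 7 of the 45318 genes in the deposited count tables, and all 7 passed the filter on low counts.

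Endocannabinoids are lipids that neurons make from their membranes on demand and that travel back across the synapse to the axon terminal. The 2 best known are 2-arachidonoylglycerol (2-AG), which Dagla and Daglb make and Mgll and Abhd6 break down, and anandamide, which Napepld makes and Faah breaks down. Both bind the receptor encoded by Cnr1, CB1, which lowers transmitter release. In the hippocampus CB1 is known to be densest on the terminals of GABA interneurons that express cholecystokinin (CCK), and the system is known for its part in restraining stress responses.

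RNA was sequenced from the ventral dentate gyrus of single adult male C57BL/6J mice, taken at postnatal day 90. All mice were assigned at 21 days of age to standard housing (SH) or to an enriched environment (EE), with large shared cages, tunnels, objects and running wheels, for 8 weeks. They then stayed unstressed as controls or went through chronic social defeat stress (CSDS), repeated defeat by aggressive CD1 males, after which a social interaction ratio above 1 classified a mouse as resilient (RES) and one below 1 as susceptible (SUS). The 6 groups were SH control (n = 10), SH RES (n = 7), SH SUS (n = 10), EE control (n = 9), EE RES (n = 9) and EE SUS (n = 9), in all 54 mice, and the 2 sequencing runs of EE control mouse 9 were summed. RES and SUS are classes that the test of behavior made after defeat, not treatments, so a difference between them has no direction in time.

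Read pairs counted on the genes' strand totaled 16760009 to 24426804 per library, and 45872357 for the mouse with 2 runs. Among the mice the 7 genes had between 695 counts (Abhd6) and 19464 counts (Cnr1). All 7 markers of dentate granule cells were found in every mouse. Prox1, a transcription factor of these cells, was at 79.6 to 210.2 CPM (read pairs of a gene, scaled to the TMM-adjusted library size). Cpne4, a marker of CA3 pyramidal cells, was also found in every mouse, at 109 to 174 CPM, so presence alone cannot check the dissection. Markers of neighboring tissue were found in unequal amounts among the punches. The summed CPM of 7 choroid plexus markers was 22.1 in the median mouse and 984 in SH control mouse 3, with Ttr, Folr1, Clic6 and Kcnj13 at 0 in at least 1 mouse, and the sum of 7 thalamus markers ran from 103 to 595. In such bulk tissue, fewer cells of a type and less RNA per cell cannot be told apart.

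Compared per length, Cnr1 was the most abundant of the 7 transcripts, and the transcripts for breakdown were above those for synthesis of the same ligand. Mean levels over the 54 mice, in CPM per kilobase of merged exons, were 56.6 for Cnr1, 30.1 for Mgll, 18.3 for Faah, 17.5 for Abhd6, 14.7 for Napepld, 9.38 for Dagla and 5.31 for Daglb. Mgll, the monoacylglycerol lipase, thus stood above both diacylglycerol lipases. The ranks depended on the length used only for the lipases of synthesis, because with the longest coding transcript Daglb was at 10.9 and Dagla at 9.56, while Faah moved up to 37.4 beside Mgll at 38.2.

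The 7 genes differed in how much they varied among mice. Dagla had the largest SD of log2 CPM, 0.25, with a 2.77-fold range from the lowest to the highest mouse. The SD was 0.14 for Cnr1 and for Napepld, 0.11 for Mgll, 0.10 for Daglb and for Abhd6, and 0.09 for Faah. Between group means the ranges were smaller. The highest group mean was 1.13 times the lowest for Cnr1, 1.11 times for Dagla and 1.05 to 1.06 times for the other 5 genes.

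**Figure D1:**
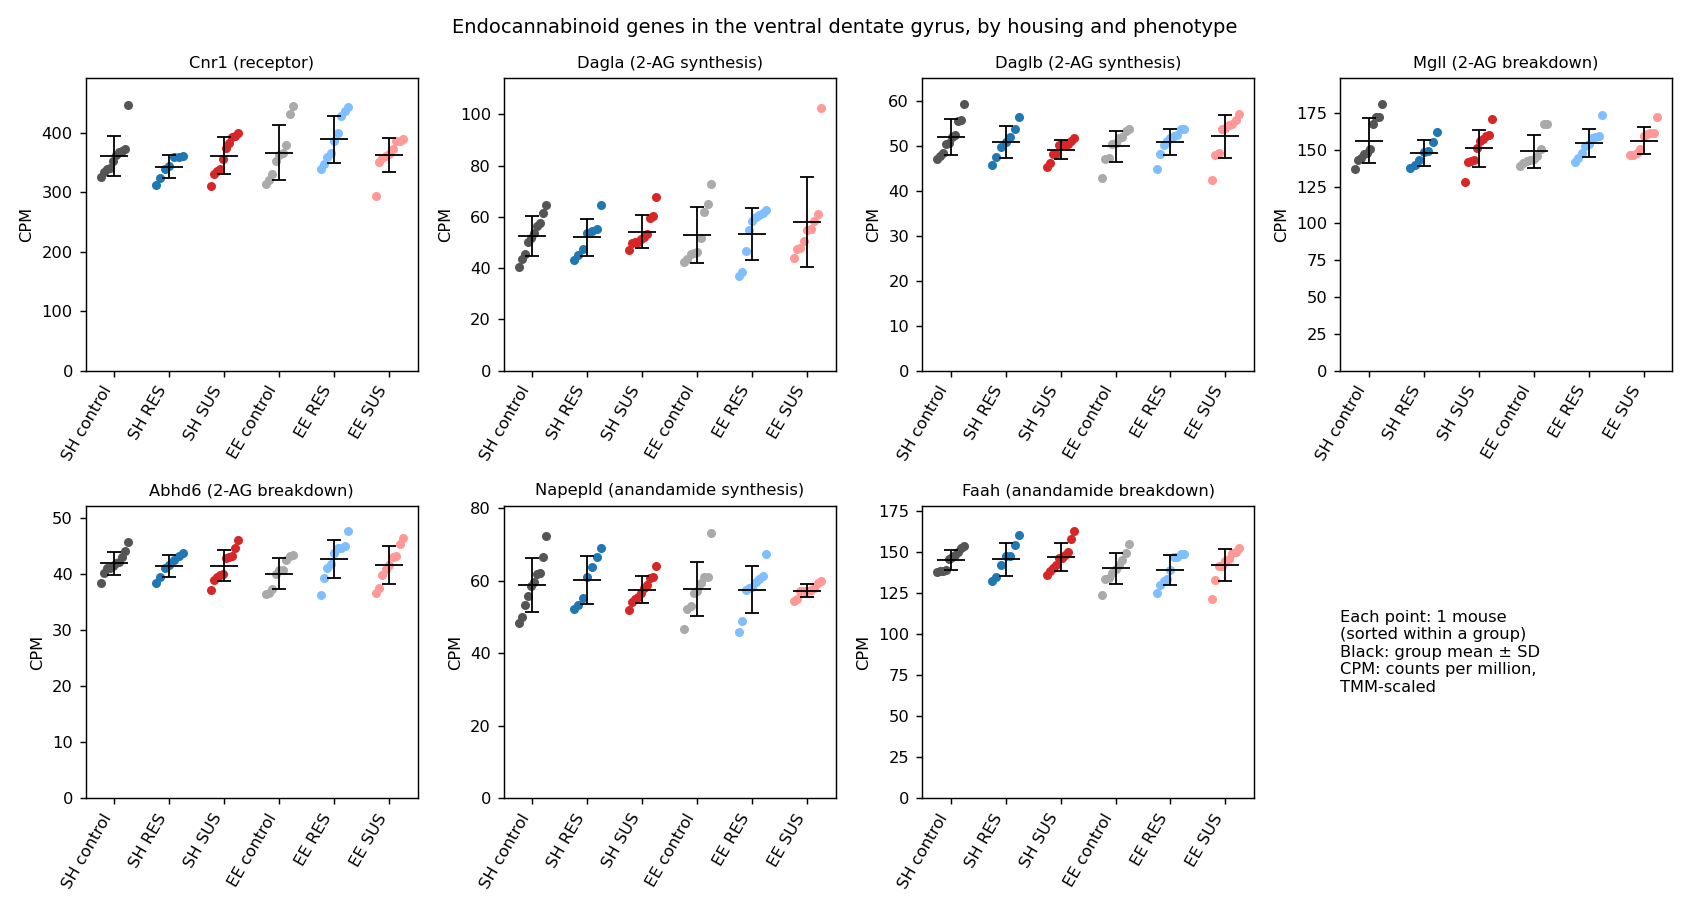
Level of each of the 7 genes in CPM (vertical axes from 0) in the 6 groups (horizontal axes), with 1 point per mouse and the group mean ± SD in black. The groups overlap in every panel, and 1 EE SUS mouse stands at 102 CPM of Dagla.

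Cnr1 lies on chromosome 4, at 33924593 to 33948831 of GRCm38 on the plus strand. In SH it ranged from 326 to 447 CPM in control mice (median 357), from 313 to 361 in RES mice (median 344) and from 309.9 to 399.7 in SUS mice (median 365). In EE it ranged from 314 to 444 CPM in control mice (median 362), from 339 to 443 in RES mice (median 386) and from 293 to 389 in SUS mice (median 365). SH RES mice were the lowest group and EE RES mice the highest, and 6 of the 9 EE RES mice lay above every SH RES mouse, with the other 3 inside their range.

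The order of the means was EE RES at 389 ± 39.7 (SD, n = 9), EE control at 366 ± 45.8 (n = 9), EE SUS at 362 ± 29.0 (n = 9), SH SUS at 361 ± 31.5 (n = 10), SH control at 361 ± 34.3 (n = 10) and SH RES at 343 ± 19.0 CPM (n = 7). No neighbors in this order differed by more than the smaller of their SDs, and the same was true of the other 6 genes. Between its ends, Cnr1 was 13.5% higher in EE RES than in SH RES mice (log2 difference 0.18, SE 0.07, 95% interval 3.5% to 24.4%). The unadjusted p was 0.00797 and the adjusted p 0.155 (quasi-likelihood test of edgeR, Benjamini-Hochberg over 18283 genes), so the difference did not pass the threshold of 0.05. Of all genes, 0.273% passed it in this comparison.

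Markers of cell types also differed between SH RES and EE RES mice. The summed CPM of 7 dentate granule cell markers was 838 to 975 in SH RES mice (median 900.1) and 532 to 869 in EE RES mice (median 732), and all 7 genes were lower in EE RES mice, with a median log2 difference of -0.34 and none called. The sum of the 7 GABA interneuron markers was 505 to 561 in SH RES mice (median 533) and 508 to 592 in EE RES mice (median 552). Of the 7, 6 were higher in EE RES mice, with a median log2 difference of 0.12 and none called. Of other lists, all 7 oligodendrocyte markers (median log2 difference 0.34), all 7 thalamus markers (0.21) and 6 of 7 choroid plexus markers (1.60) were higher in EE RES mice. So were 6 of 7 CA3 markers (0.19), while 4 of 5 hilar mossy cell markers were lower (-0.24). None of these was called. With the granule cell and GABA interneuron scores as covariates, an alternative chosen after the data were seen, the log2 difference in Cnr1 was 0.07, with an unadjusted p of 0.145 from edgeR. With the scores of choroid plexus, thalamus, CA1 and CA3 markers as covariates it was 0.08, with an unadjusted p of 0.0566. Whether the makeup of the punches made the difference was not tested.

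The difference between SUS and RES mice in Cnr1 had opposite signs in the 2 housings. SUS mice were 5.4% above RES mice in SH (95% interval -3.65% to 15.3%) but differed from them by -6.93% in EE (interval -14.6% to 1.4%), with unadjusted p-values of 0.246 and 0.0987 from edgeR. The interaction itself was -0.18 on the log2 scale (SE 0.09), with an unadjusted p of 0.0496 and an adjusted p of 0.977. Without EE SUS mouse 8, the lowest of all mice in Cnr1 at 293 CPM, it was -0.14 with an unadjusted p of 0.108. The unadjusted p was above 0.05 in 37 of the 54 fits without 1 mouse and under 9 of 10 alternatives. With the granule cell and GABA interneuron scores as covariates it was -0.04.

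Dagla, the diacylglycerol lipase known to make most of the 2-AG released in the adult brain, lies on chromosome 19 at 10245265 to 10304877 on the minus strand. Levels in SH ranged from 40.3 to 64.5 CPM in control mice (median 52.8), from 43.2 to 64.5 in RES mice (median 53.9) and from 47.2 to 67.9 in SUS mice (median 51.7). Levels in EE ranged from 42.4 to 72.7 CPM in control mice (median 46.2), from 37.0 to 62.8 in RES mice (median 58.5) and from 43.8 to 102 in SUS mice (median 55.0). The groups overlapped along most of their length, and the single value of 102 CPM belonged to EE SUS mouse 8, above the next mouse of its group at 61.0.

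That mouse set the order of the Dagla means. EE SUS came first at 58.0 ± 17.5 CPM (SD, n = 9) and SH RES last at 52.0 ± 7.34 (n = 7), but without EE SUS mouse 8 the EE SUS mean was 52.4 ± 5.92 (n = 8). The log2 difference of EE SUS from EE control mice was 0.14 with it and -0.01 without it, and that from EE RES mice 0.12 and -0.03. In the comparisons between single groups, the 95% intervals of Dagla reached from -17.0% to 29.8%, and its smallest unadjusted p was 0.259 (edgeR).

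Daglb, the second diacylglycerol lipase, known for its role in microglia and macrophages, lies on chromosome 5 at 143464584 to 143505942 on the plus strand, where it overlaps Rac1 on the other strand. Among SH mice Daglb ranged from 47.1 to 59.4 CPM in control mice (median 51.3), from 45.8 to 56.4 in RES mice (median 51.0) and from 45.4 to 51.7 in SUS mice (median 50.3). Among EE mice it ranged from 42.8 to 53.7 CPM in control mice (median 50.6), from 45.0 to 53.8 in RES mice (median 51.8) and from 42.5 to 57.2 in SUS mice (median 54.04). EE SUS mice had the highest mean, 52.1 ± 4.78 CPM (SD, n = 9), and SH SUS mice the lowest, 49.2 ± 2.10 (n = 10), and 6 of the 9 EE SUS mice lay above every SH SUS mouse. EE SUS mice were 5.91% above SH SUS mice (95% interval -0.711% to 13%), with an unadjusted p of 0.0802 and an adjusted p of 0.72 from edgeR.

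Mgll, which ends most 2-AG signals at the terminal, lies on chromosome 6 at 88724412 to 88828360 on the plus strand. Mgll in SH ranged from 137 to 181 CPM in control mice (median 149), from 138 to 162 in RES mice (median 148) and from 128 to 171 in SUS mice (median 154). Mgll in EE ranged from 139 to 168 CPM in control mice (median 144), from 142 to 174 in RES mice (median 154) and from 146 to 172 in SUS mice (median 159). In EE the controls were the lowest group and 6 of the 9 lay below every SUS mouse, whereas in SH the controls had the highest mean.

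By their means, defeated mice were below controls in SH and above them in EE, while by the medians SH SUS mice were above SH control mice. The log2 difference of SH SUS from SH control mice was -0.05, and -0.02 without SH control mouse 10. Control and defeated mice were at 156 ± 15.4 (SD, n = 10) and 149.7 ± 10.8 CPM (n = 17) in SH and at 149 ± 11.01 (n = 9) and 155 ± 9.05 CPM (n = 18) in EE. The difference between the defeat effects, EE less SH, was 0.12 on the log2 scale (SE 0.06), with an unadjusted p of 0.045 and an adjusted p of 0.756 from edgeR, and 0% of all genes passed the threshold for this interaction. For this interaction, leaving out 1 mouse at a time put the unadjusted p above 0.05 in 27 of 54 fits, with an upper value of 0.103, and without SH control mouse 10 the interaction was 0.10 on the log2 scale. Within a housing, neither SUS nor RES mice were called against their controls, with unadjusted p-values from 0.139 to 0.302 in edgeR.

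Abhd6, which breaks down 2-AG on the side of the synapse that makes it, lies on chromosome 14 at 8002902 to 8056763 on the plus strand. SH mice had Abhd6 at 38.3 to 45.6 CPM in control mice (median 41.7), from 38.3 to 43.6 in RES mice (median 41.6) and from 37.2 to 46.0 in SUS mice (median 41.4). EE mice had it at 36.5 to 43.3 CPM in control mice (median 40.7), from 36.2 to 47.6 in RES mice (median 43.7) and from 36.5 to 46.5 in SUS mice (median 41.6). EE RES mice held both the lowest and the highest value of the 54, and 5 of these 9 lay above every EE control mouse. The mean was 42.6 ± 3.44 CPM in EE RES (SD, n = 9) and 40.04 ± 2.72 in EE control mice (n = 9), a difference of 6.46% (95% interval -0.131% to 13.5%) with an unadjusted p of 0.0547 and an adjusted p of 0.631 from edgeR.

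Napepld, the phospholipase that releases anandamide from its membrane precursor, lies on chromosome 5 at 21662901 to 21701396 on the minus strand. Napepld in SH ranged from 48.3 to 72.5 CPM in control mice (median 59.2), from 52.3 to 69.0 in RES mice (median 61.0) and from 51.9 to 64.1 in SUS mice (median 57.4). Napepld in EE ranged from 46.7 to 73.3 CPM in control mice (median 57.3), from 45.9 to 67.4 in RES mice (median 58.4) and from 54.6 to 60.02 in SUS mice (median 57.2). Its means ran only from 57.4 ± 1.79 CPM in EE SUS (SD, n = 9) to 60.2 ± 6.65 in SH RES mice (n = 7), and EE SUS mice were the tightest group, inside the range of each of the other 5. Its unadjusted p in the comparisons of single groups was 0.363 or above (edgeR).

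Faah, which breaks down anandamide inside the cell, lies on chromosome 4 at 115967145 to 116017926 on the minus strand. With SH, Faah ranged from 138 to 154 CPM in control mice (median 146), from 132 to 161 in RES mice (median 148) and from 136 to 163 in SUS mice (median 147). With EE, it ranged from 124 to 155 CPM in control mice (median 139.7), from 125 to 149 in RES mice (median 139) and from 121 to 152 in SUS mice (median 144). All 3 SH means stood above all 3 EE means, from 147 ± 8.43 CPM in SH SUS (n = 10) to 139 ± 9.11 in EE RES mice (n = 9), while the ranges overlapped.

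Over the 3 phenotypes Faah in EE differed from SH by -3.79% (95% interval -6.99% to -0.488%), at 140.5 ± 9.09 CPM against 146 ± 7.86 in SH (SD, n = 27 in each). Its unadjusted p was 0.0256 and its adjusted p 0.204 (edgeR), so it did not pass, in a comparison in which 2.42% of all genes did. The same comparison put Cnr1 4.91% higher in EE (interval -0.189% to 10.3%), with an unadjusted p of 0.059. By phenotype, EE differed from SH in Faah by -3.57% in control, -4.57% in RES and -3.24% in SUS mice, and in Cnr1 by 1.58%, 13.5% and 0.19%, none of them past the threshold. In all tests of housing, mice that shared a cage count as independent, since the cage of each mouse is not stated.

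**Figure D2:**
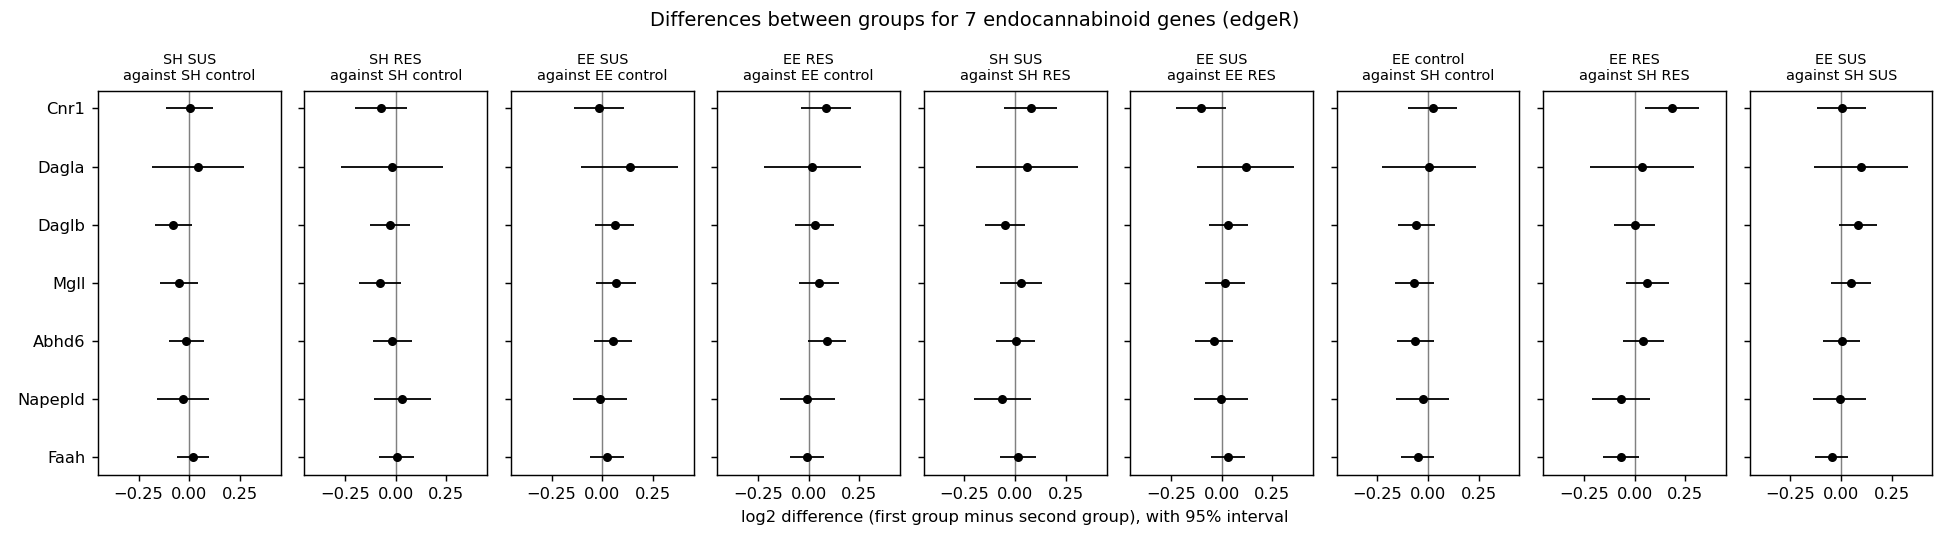
Log2 difference (horizontal axes, first group minus second) with its 95% interval from edgeR for each of the 7 genes (rows) in 9 comparisons of single groups (panels). The interval of Cnr1 in EE RES against SH RES, 0.05 to 0.31, is the 1 interval of 63 that does not reach 0.

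Taken by comparison, none of the 7 genes was called at an adjusted p of 0.05 in any of the 15 tests. The question of the first 4 was what defeat changed within a housing. Against SH control mice, 0 of 7 members were called in SH SUS (0.0328% of all genes) and in SH RES mice (0%). Against EE control mice, 0 of 7 were called in EE SUS (0%) and in EE RES mice (0%). The pairs share their controls, so the values for SUS and RES are not independent. For defeated against control mice over both housings the count was again 0 of 7, beside 0.0438% of all genes, and the log2 differences ran from -0.004 for Napepld to 0.04 for Dagla.

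The next question was what separated SUS from RES mice. No member was called in SH (0% of all genes), in EE (0%), over both housings (0%) or in the test of whether housing changed the difference (0%). By the criterion of the study, a fold change above 1.3 with p under 0.05 before adjustment in limma, 1.14% of all genes were called between SH SUS and SH RES and 1.1% between EE SUS and EE RES mice, and again 0 of 7 members. The largest member difference in limma was 0.07 on the log2 scale in SH and 0.10 in EE, against the 0.38 that the criterion asks for.

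The remaining comparisons asked what housing changed within a phenotype. No member was called between EE and SH control mice (0.00547% of all genes), EE and SH RES mice or EE and SH SUS mice (0.00547%), nor in the test of any difference among the 6 groups (0.35%), where Cnr1 had the smallest unadjusted p, 0.167. In 8 of the 15 tests edgeR called 0 genes of all kinds, as did DESeq2 and limma, while 641 to 1447 genes had an unadjusted p below 0.05 in edgeR. Across the 105 tests of members, 4 unadjusted p-values were below 0.05, those of Cnr1, Mgll and Faah given above. Such p-values were not confined to the members. Of the 18283 genes tested, 2934 had one in edgeR for EE RES against SH RES, the test of Cnr1. For EE against SH over the phenotypes, the test of Faah, 3224 genes had one. For the interactions the counts were 1183 genes (defeat effects, Mgll) and 884 genes (SUS less RES, Cnr1).

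The intervals bound what these groups could differ by. For the 6 genes other than Dagla, the 95% intervals of all 54 comparisons of single groups lay between -14.6% and 24.4%. Differences of a few percent were not detectable with 7 to 10 mice per group. The median log2 difference of the 7 genes was between -0.05 and 0.05 in each of these 9 comparisons, beside -0.005 to 0.005 for all genes tested.

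Of the rest of the pathway, 29 genes were listed in 5 groups and 24 passed the filter on low counts. A single one of the 24 was called in any comparison, in EE against SH over the phenotypes, where 2.42% of all genes were called. That is 1 of 24 pathway genes, beside 442 of all 18283 genes tested. A call in so short a list does not set the pathway apart from other genes, and its share of calls was not tested against theirs. The called gene belonged to the 9 other anandamide enzymes, of which Plaat5 was below the filter. Pla2g4e, the calcium-dependent acyltransferase that makes the precursor of anandamide, was lower in EE. It ranged from 7.38 to 15.8 CPM in SH (median 11.2) and from 4.55 to 13.5 in EE mice (median 8.38). All 3 EE means, 9.56 ± 3.12 in control, 8.14 ± 1.98 in RES and 8.94 ± 2.14 CPM in SUS mice (SD, n = 9 each), were below all 3 SH means, of which the lowest was 11.1 ± 1.56 in SUS mice (n = 10), while the ranges overlapped.

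Over the 3 phenotypes Pla2g4e in EE differed from SH by -23.3% (log2 difference -0.38, SE 0.09, adjusted p = 0.0162, edgeR). Cage mates count as independent mice here as well. By phenotype the difference was -16.7% in control, -32.8% in RES and -19.4% in SUS mice, with adjusted p-values of 0.979, 0.0869 and 0.677. Over the phenotypes, Pla2g4e was called under 9 of the 10 alternatives. The exception, added after the data were seen, had the granule cell and GABA interneuron scores as covariates. With it the log2 difference was -0.26, with an adjusted p of 0.259 from edgeR. In this comparison all 7 granule cell markers were also lower in EE, 2 of them called, with a median log2 difference of -0.18. All 7 oligodendrocyte markers (median 0.25, 2 called) and all 7 endothelial markers (median 0.14, 1 called) were higher. Napepld, which acts on the lipid that Pla2g4e makes, differed by -0.03 on the log2 scale between the housings.

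**Figure D3:**
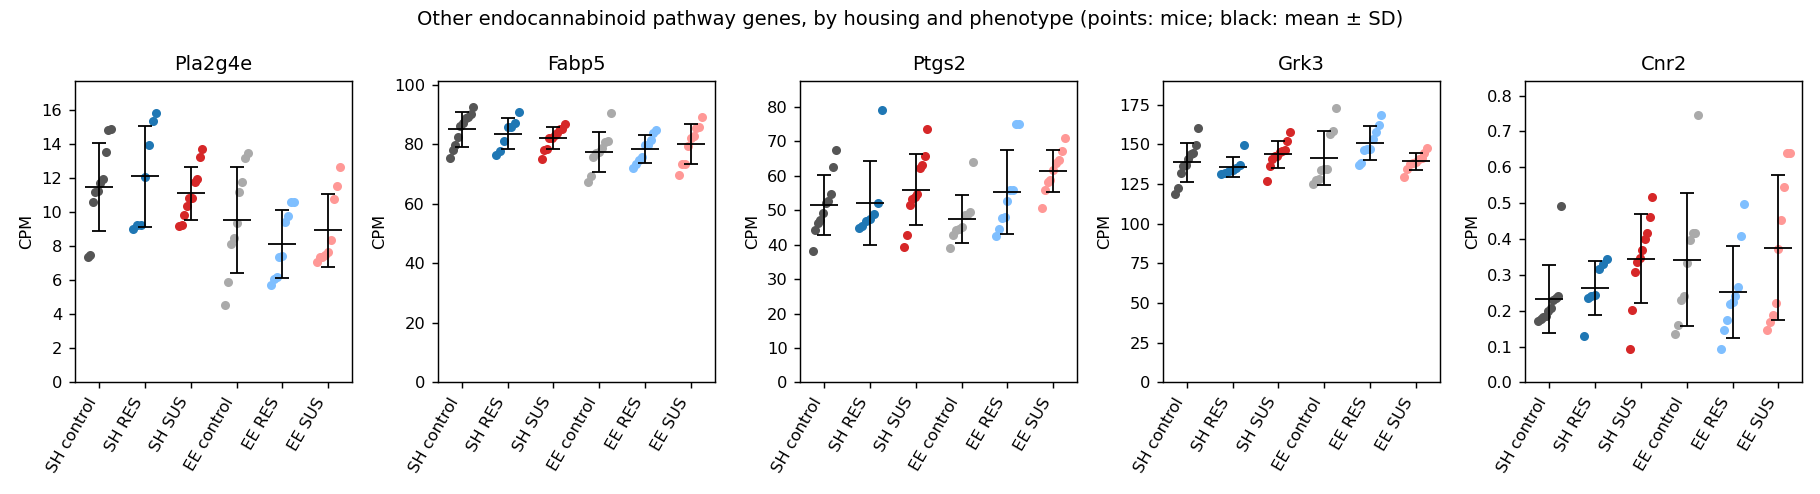
Level in CPM (vertical axes from 0) of 5 other genes of the pathway in the 6 groups, with 1 point per mouse and the group mean ± SD in black. Pla2g4e runs from 4.55 to 13.5 CPM in EE and from 7.38 to 15.8 CPM in SH mice.

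The other 4 groups of pathway genes had no calls. Among the other receptors, Cnr2, which encodes the CB2 receptor of immune cells, and Ppara were tested, while Gpr55, Gpr18, Gpr119 and Trpv1 were below the filter. Cnr2 had at most 15 counts in a mouse, a mean of 0.303 CPM, and a smallest unadjusted p of 0.0352, for SUS above RES mice over both housings (adjusted p = 0.999, edgeR). Of the 7 partners of CB1, Grk3, a kinase that desensitizes receptors, had the smallest p in the test of any difference (0.08). It followed the direction of Cnr1, with EE RES mice 11% above SH RES mice (adjusted p = 0.152) and the means of the 6 groups between 136 and 151 CPM.

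Among the other 4 enzymes that act on 2-AG or its precursor, Ptgs2 had the smallest p in the test of any difference (0.0385, adjusted p = 0.413, edgeR). It encodes cyclooxygenase-2, an enzyme that oxygenates 2-AG and anandamide and is induced by activity. EE SUS mice were at 61.4 ± 6.14 CPM (SD, n = 9) and EE control mice at 47.4 ± 7.05 (n = 9), 29% apart, with an unadjusted p of 0.00178 and an adjusted p of 0.31 from edgeR. In that comparison 7.9% of all genes had an unadjusted p below 0.05 in edgeR, and 0% were called. Among the 3 intracellular carriers of anandamide, Fabp5 differed between EE and SH by -5.8% over the phenotypes, with an adjusted p of 0.0676. It was at 83.5 ± 4.92 CPM in SH and at 78.7 ± 5.95 in EE mice (SD, n = 27 in each), with ranges of 75.1 to 92.5 and 67.3 to 90.5.

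Next, the 7 genes were compared with each other over the 54 mice, each value being the log2 CPM of 1 library. Of 21 pairs, 4 had a correlation that passed a permutation test with 100000 resamples after Benjamini-Hochberg adjustment. Dagla and Faah were correlated positively (Pearson r = 0.55, p = 3e-05, adjusted p = 0.00063, Spearman rho = 0.63, p = 1e-05, the smallest these permutations give). Cnr1 was lower where Napepld was higher (r = -0.51, p = 9e-05, adjusted p = 0.000945, rho = -0.42, p = 0.0016).

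Cnr1 and Dagla had an r of -0.41 (p = 0.00212, adjusted p = 0.0148, rho = -0.34, p = 0.0122, adjusted p for rho = 0.0642, so not past the threshold by ranks), and Daglb and Mgll an r of 0.39 (p = 0.00302, adjusted p = 0.0159, rho = 0.40, p = 0.00301). With the 2 mice farthest from the median of the first gene left out, r was 0.55, -0.43, -0.32 and 0.31 for the 4 pairs in the order given. For deviations from the group means it was 0.59, -0.51, -0.45 and 0.36, and each passed the adjusted threshold when mice were permuted within groups. Without SH control mouse 3 and EE SUS mouse 8, the r of Cnr1 and Dagla was -0.28 (p = 0.0435, adjusted p = 0.152), and the other 3 pairs still passed, with Dagla and Faah at 0.65. Cnr1 and Dagla had an r of -0.39 without the first mouse alone and -0.30 without the second alone, and a negative r in all 6 groups, from -0.73 to -0.17.

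Cnr1 also varied with markers of the cells in the punch. Of 84 correlations between the 7 genes and 12 marker lists, 22 passed the permutation test after adjustment, 7 of them with Cnr1. The mean z-score of the 7 GABA interneuron markers had an r of 0.75 with Cnr1 (rho = 0.72) and that of 6 markers of CCK basket cells an r of 0.64 (rho = 0.65). The score of dentate granule cells had an r of -0.70 (rho = -0.74), that of hilar mossy cells -0.63 (rho = -0.50) and that of CA3 pyramidal cells 0.60 (rho = 0.59). These 5 had a p of 1e-05 for r and an adjusted p of 0.000105, the smallest possible here.

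The relation of Cnr1 to the interneuron score held within groups, with r between 0.73 and 0.84 in each of the 6. With the granule cell score r was between -0.90 and -0.41. Without the 2 mice farthest from the median Cnr1 level, r was 0.69 with interneurons and -0.63 with granule cells. Cnr1 was also correlated with the oligodendrocyte score (r = 0.37, adjusted p = 0.0334) and the choroid plexus score (r = 0.50, adjusted p = 0.00168). The relation to oligodendrocytes did not pass the permutation test for deviations from the group means (adjusted p = 0.0933). Its r within groups ran from -0.46 to 0.62. By ranks the relation to choroid plexus did not pass (rho = 0.31, adjusted p = 0.0945). SH control mouse 3 was the highest of the 54 mice in both Cnr1 and the choroid plexus score. The scores are relative levels that share each library's total, and whether they follow numbers of cells was not tested.

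**Figure D4:**
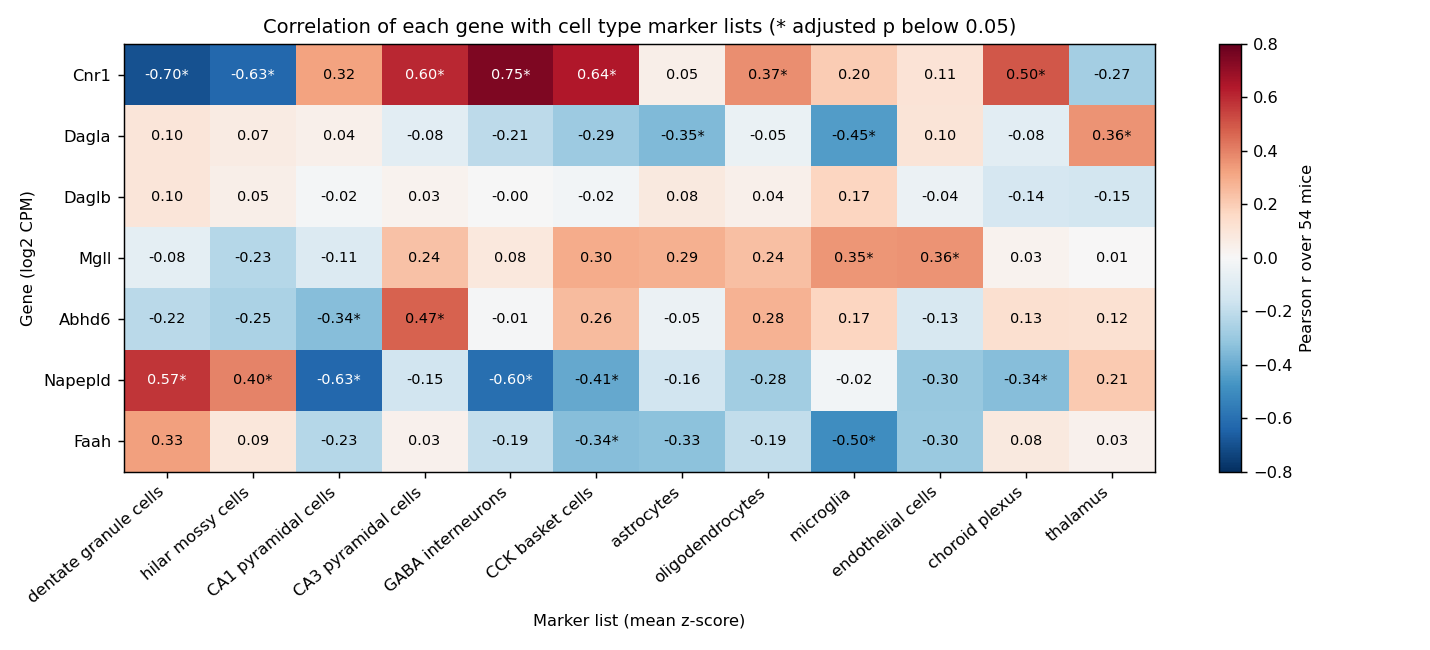
Pearson r over the 54 mice between the log2 CPM of each of the 7 genes (rows) and the mean z-score of each of 12 marker lists (columns), with an asterisk where the adjusted permutation p is below 0.05. Cnr1 and Napepld have opposite signs for granule cells (-0.70 and 0.57) and GABA interneurons (0.75 and -0.60), and Daglb has no asterisk.

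Napepld went the other way. Its r was 0.57 with dentate granule cells, 0.40 with hilar mossy cells, -0.60 with GABA interneurons and -0.63 with CA1 pyramidal cells. The relation to hilar mossy cells did not pass by ranks (adjusted p = 0.0602) or without SH control mouse 3 and EE SUS mouse 8 (adjusted p = 0.0609). Of the 22 marker relations, 16 still passed without those mice. Abhd6 was correlated with the CA3 score (r = 0.47, adjusted p = 0.00229). Dagla and Faah had the microglia list in common, with an r of -0.45 (adjusted p = 0.00854) and -0.50 (adjusted p = 0.0014). Mgll had an r of 0.35 with it (adjusted p = 0.0378), which did not pass by ranks (adjusted p = 0.0529). Daglb, although known from microglia, had an r of 0.17 with that list and passed with none of the 12.

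**Figure D5:**
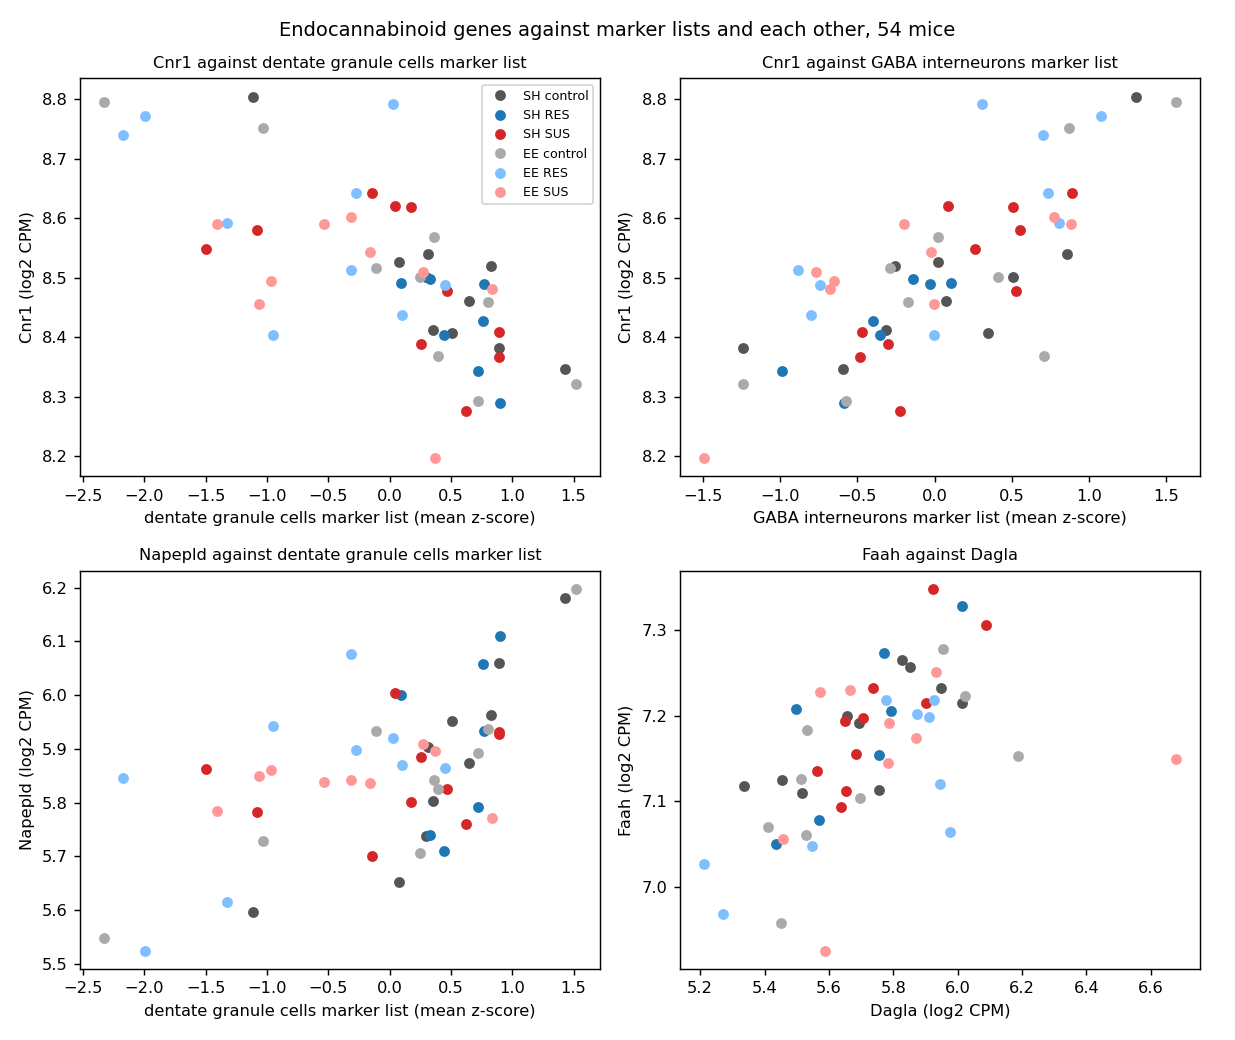
Log2 CPM of Cnr1 against the granule cell and interneuron scores (mean z-scores), of Napepld against the granule cell score, and of Faah against Dagla, with 1 point for each of the 54 mice, colored by group. Cnr1 falls with the granule cell score (r = -0.70) and rises with the interneuron score (r = 0.75), the 6 groups mix in each panel, and 1 EE SUS mouse lies apart on the Dagla axis.

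The genes also varied with measures of the libraries, a check chosen after the spread of Dagla had been seen. The measures were the total gene count and the shares of unmapped, multimapping and no-feature read pairs. No-feature read pairs aligned but matched no gene. Of 28 correlations with these measures, 7 passed the permutation test. The strongest was that of Dagla with the multimapping share (r = -0.65, rho = -0.60, adjusted p = 0.00028), which held in all 6 groups, with r between -0.89 and -0.27. This share ran from 8.7% to 12.1%, and EE SUS mouse 8, the highest in Dagla, had the lowest. For Faah r was -0.44 and for Cnr1 0.41 with the same share. Without SH control mouse 3 and EE SUS mouse 8, 3 of the 7 relations still passed. They were those of Dagla (r = -0.62) and Faah (-0.46) with the multimapping share and of Daglb with the no-feature share (-0.41). Cnr1 with the multimapping share was at 0.32 (adjusted p = 0.0848). Over all 54 mice, the relation of Daglb did not pass the permutation test by ranks (adjusted p = 0.052) or for deviations from the group means (adjusted p = 0.0681). Whether RNA quality had a part in these relations was not tested.

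Beyond the pathway, the protein-coding genes with the most similar pattern over the 54 mice were sought for each member among the 14498 tested. Cnr1 was nearest to Psd3, Tspan13 and Ppp2r2b (r = 0.85 for each) and Dagla to Atp2b2, Prrc2b and Camta2 (r = 0.91, 0.90 and 0.90). For Faah they were Camk2b, Strn4 and Anxa11 (r = 0.80 to 0.77) and for Napepld Dhx33, Ippk and Bag4 (r = 0.73 to 0.71). For Abhd6 they were Fam91a1, Pdhb and Luzp1 (r = 0.66 to 0.64), for Mgll Nsmf, Psd and 9430097D07Rik (r = 0.61 to 0.53) and for Daglb B4gat1, Atg101 and Mcrs1 (r = 0.57 to 0.53). These values describe likeness of pattern and were not tested.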

How the data were processed

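Ventral dentate gyrus RNA from 54 mice was analyzed. The authors made libraries with a stranded kit, aligned read pairs to GRCm38 with STAR and deposited raw counts per gene for 55 libraries. Their methods name featureCounts, but the tables are laid out like STAR gene counts, and Picard is listed in the submitters' notes. The reverse-strand column was used, since the forward column held 3.51% to 4.13% of stranded counts. Read pairs assigned to no gene (47.1% to 54.2%) entered neither library sizes nor tests. The 2 runs of EE control mouse 9 (r = 0.999 in log2 CPM) were summed.

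Groups were taken from the labels. The members and gene lists were chosen with earlier results of these data known. All 7 members were named, with other pathway genes where called or where lowest in p within their list, and the 3 genes nearest to each member. Plaat1 was matched as Hrasls, and the marker Dlx6os1 was not used here.

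Counts were normalized by TMM in edgeR 4.0.16 (R 4.3.3), and 18283 genes passed filterByExpr. The 6 groups were fitted in 1 quasi-likelihood model, with Benjamini-Hochberg adjustment over all genes. EE mice shared large cages and SH mice smaller ones, but the litter and cage of each mouse are not stated. The p-values thus set group differences against the spread between these mice and treat cage mates as independent. Scores are mean z-scores of log2 CPM (prior count 2). Correlations were tested with 100000 permutations. The model was tested on simulated data. Alternatives were DESeq2 1.42.0, limma 3.58.1, DESeq2 size factors, no low-count filter, at least 1 CPM in 7 mice, unstranded counts, the first run alone, a replicate block, marker scores as covariates, and each mouse left out. Correlations without 2 mice, correlations with library measures and the granule cell and interneuron covariates were added after the data were seen. Further tools were Python 3.11.15, NumPy 2.4.6, pandas 2.3.3, SciPy 1.17.1, statsmodels 0.14.6 and matplotlib 3.10.9.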

Additional observations from a re-analysis of the deposited data

Results flagged for a closer look

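In 3 cases a value of the 7 genes stood far from the rest of their group by Dixon's test, among 42 sets of 1 gene in 1 group, of which chance marks about 1 in 20. Cnr1 was 447.004 CPM in SH control mouse 3, where the next mouse of the group had 372. That mouse also had the highest choroid plexus score and the second highest GABA interneuron score of the 54 mice. Its share of no-feature read pairs, which aligned but matched no gene, was the lowest, 19.9%. Without it the SH control mean of Cnr1 was 351 ± 17.1 CPM (SD, n = 9).

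The other 2 values came from EE SUS mouse 8, in which Cnr1 was 293.413 CPM, below the next mouse of its group at 351, and Dagla was 102.303 CPM, above the next at 61.0. That mouse had the highest thalamus score and the lowest GABA interneuron score of the 54 mice, and the lowest multimapping share, 8.7%. Its level of Abhd6 was the third lowest, while Daglb, Mgll, Napepld and Faah were inside the range of their group. The part of tissue makeup or RNA quality in these values was not tested. None of the 14 interaction tests, 2 for each gene, passed an adjusted p of 0.05.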

How the results depend on the processing

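No member was called in any of the 15 tests under the 10 alternatives, where the lowest adjusted p was 0.118 (DESeq2), or with any 1 of the 54 mice left out, where it was 0.106. Counts over all genes moved more. For EE RES against SH RES, 50 genes became 245 with DESeq2, 228 with the replicate block, 24 without the low-count filter, 1 with choroid plexus, thalamus, CA1 and CA3 scores and 0 with granule cell and interneuron scores. For EE against SH, 442 became 680 with DESeq2, 242 without the filter and 53 with granule cell and interneuron scores, and for any difference 64 became 183, 40 with limma and 10 with those scores. For SH SUS against control, 6 became 1 with limma. For defeated against control, 8 became 13 with DESeq2 and 5 with the choroid plexus set. For EE against SH control, 1 became 2 with DESeq2 or unstranded counts, 5 with the choroid plexus set and 3 with granule cell and interneuron scores. For EE against SH SUS, 1 became 2 with the choroid plexus set or the first run alone and 0 with limma, the stricter filter or granule cell and interneuron scores. The cause was not tested.

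Leaving out 1 mouse gave 0 to 292 genes for EE RES against SH RES (0 without EE RES mouse 8 and 292 when EE RES mouse 9 was left out), 254 to 735 for EE against SH (EE RES mouse 8 and SH SUS mouse 3), 31 to 121 for any difference (SH RES mouse 2 and EE SUS mouse 9), 2 to 8 for SH SUS against control (2 without SH SUS mouse 2), 7 to 10 for defeated against control, 1 to 4 for EE against SH control, 0 to 3 for EE against SH SUS, 0 to 4 for EE SUS and 0 to 2 for EE RES against EE control. Pla2g4e was called in all 54 of these fits (adjusted p 0.00686 to 0.0318).

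The labels give no pairing by replicate number. Same-numbered mice of different groups had a median correlation of 0.011 over 126 pairs, with 24 above 0.1 and a highest value of 0.557. Different-numbered mice had a median of -0.001 over 1086 pairs. Whether some same-numbered mice shared handling was not tested. With the replicate block, Cnr1 in EE RES against SH RES was 0.19 on the log2 scale (adjusted p = 0.125), and no member was called.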
